A study of Homo sapiens with 11 samples.

Results

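The genes described here are the cardiac and the skeletal muscle alpha-actin, ACTC1 and ACTA1, and the 4 alpha-actinins, ACTN1, ACTN2, ACTN3 and ACTN4. They are 6 of the 19990 genes in a table of read counts from human cardiomyocytes in long-term culture. The genes were chosen with earlier results of these data known, and ACTN3 was chosen by its measured fall in read count after Day 60. Its values are therefore a description without a test, while the other 5 genes were tested. The cells came from WTC11, an established induced pluripotent stem cell line, at passage 63. They were made cardiomyocytes with CHIR99021, a GSK3 inhibitor, followed by IWP2, an inhibitor of Wnt secretion, and were then kept in B27 medium with insulin. The poly(A) RNA libraries came from Day 30 (4 wells), Day 60 (3) and Day 113 (4). All 11 wells shared the line, the passage, the differentiation protocol and the medium and differed in their day of collection. The sample titles name the replicates as wells of 1 line at passage 63 and do not say whether they came from 1 differentiation. The spread between them is not known to cover another differentiation and covers no other line. A collection cannot be told apart from a day. The comparisons ask how the RNA of these genes changed while the cells aged in culture.

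Actin monomers polymerise into the thin filaments of the sarcomere. The cardiac isoform predominates in the developing heart, the human heart also makes the skeletal isoform, and adult skeletal muscle uses the skeletal one. Alpha-actinins are antiparallel dimers that crosslink actin filaments. ACTN2 and ACTN3 do so at the Z-disc of striated muscle, ACTN3 mainly in fast skeletal fibres, whereas ACTN1 and ACTN4 are found at the focal adhesions, stress fibres and cell cortex of many cell types. Stem cell-derived cardiomyocytes are often identified by sarcomeric alpha-actinin staining.

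Each library held 24.1 to 34.5 M counts, where M stands for 1000000. All 8 cardiomyocyte marker genes (TNNT2, MYH6, MYH7, MYL7, RYR2, PLN, NKX2-5 and TNNI1) were present, and their summed level was 27880 to 37340 CPM (counts per 1000000, scaled by TMM, a trimmed mean of M-values) at Day 30, 34950 to 39730 at Day 60 and 28900 to 35660 at Day 113. Markers of other cells moved between the days. The sum of 8 fibroblast genes was 3353 to 7707 CPM at Day 30, 2070 to 3570 at Day 60 and 5431 to 13040 at Day 113. Most of it was COL1A1, COL1A2 and COL3A1, and the genes of the list did not move together: from Day 30 to Day 113, 4 rose and 2 fell, the latter being PDGFRA (-2.15, adjusted p 3.6e-08) and LUM (-1.27, adjusted p 2.4e-04). Among all genes, 17.3% rose and 17.2% fell between these days. The sum of 8 endothelial genes was 54.0 to 81.8, 37.1 to 61.5 and 196.6 to 812 CPM on the same days. All 8 rose after Day 60, where 12.9% of all genes were called higher. Epithelial genes summed to 2146 to 3062, 1288 to 1475 and 1174 to 1963 CPM, mostly of KRT8, KRT18 and KRT19, smooth muscle genes to 616 to 914, 760 to 983 and 975 to 1418 CPM, and epicardial genes to 97.3 to 137, 152 to 208 and 195 to 271 CPM. The epithelial genes moved apart after Day 60, KRT8 and KRT18 rising by 0.55 each on the log2 scale while KRT19 fell by 1.97 and CLDN6 by 2.93. EPCAM fell by 5.91 from Day 30 to Day 113, mostly before Day 60 (-4.93, adjusted p 2.9e-06). Its step after Day 60 was -0.98 and did not pass (adjusted p 0.1). No listed gene of these classes that was in the table stood at 0 in all wells. This had to be so, since a filter for low counts removed no gene of the table. MYH11 of the smooth muscle list was not in the table. In these bulk samples, fewer cells of a type and less RNA per cell cannot be told apart.

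ACTC1 and ACTA1 are compared first. The 250 bases before a RefSeq start of each gene (assembly GRCh38.p14, both on the minus strand) are shown because each holds the same pair of motifs, a CArG box, which is the site of serum response factor, and a TATA box. Capitals mark these motifs. The ACTC1 stretch is chr15:34795550-34795799 and the ACTA1 stretch is chr1:229434095-229434344.
ACTC1: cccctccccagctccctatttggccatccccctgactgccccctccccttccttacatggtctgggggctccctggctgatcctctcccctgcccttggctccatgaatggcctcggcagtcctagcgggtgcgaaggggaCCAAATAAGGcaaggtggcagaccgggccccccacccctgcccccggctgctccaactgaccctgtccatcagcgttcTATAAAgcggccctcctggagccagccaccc
ACTA1: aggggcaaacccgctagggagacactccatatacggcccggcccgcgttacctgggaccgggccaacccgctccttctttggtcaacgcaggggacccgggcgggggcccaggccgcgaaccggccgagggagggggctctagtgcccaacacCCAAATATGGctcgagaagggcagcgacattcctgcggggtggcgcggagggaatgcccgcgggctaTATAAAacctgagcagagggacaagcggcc
The CArG box began 109 bases before the start in ACTC1 and 97 bases before it in ACTA1, and TATAAA began 31 and 30 bases before it. Both strands were searched for the CArG box and for TATAAA, and the 2 motifs do not overlap. Among 27305 gene windows of 300 bases, from 250 before to 50 after a start, 1.28% held a CArG box and 12.0% held TATAAA. RefSeq gives ACTC1 3 starts, and neither motif was in the windows of the other two. A CArG box was also in 1 of the 4 ACTN1 windows and in neither the ACTN2 window nor the 2 ACTN4 windows. That ACTN1 window held TATAAA as well, on the opposite strand, so the pair is not particular to the actins. Relative to the start, its CArG box began at -171 and its TATAAA match at -122. The promoter sequences used had no ACTN3 window. A match in sequence is a description and does not show binding. SRF, the gene of serum response factor, rose between Day 30 and Day 113, from means of 90.7 ± 14.8 to 169 ± 16.7 CPM (SD over 4 wells each; log2 fold change 0.90, adjusted p 7.7e-05, edgeR).

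ACTC1 (chromosome 15, 34788095 to 34795726, minus strand, GRCh38, GENCODE 29) was the most abundant of the 6 genes. It stood at 4677, 3988, 2796 and 5545 CPM in the Day 30 wells, at 5864, 3470 and 4115 CPM in the Day 60 wells, and at 6622, 6290, 5855 and 5036 CPM in the Day 113 wells. The ranges of the days overlapped, since the highest Day 30 well lay above the lowest Day 113 well. Means with SD over the wells were 4251 ± 1161 CPM for Day 30 (n = 4), 4483 ± 1238 for Day 60 (n = 3) and 5951 ± 686 for Day 113 (n = 4). No comparison of days passed the threshold for ACTC1. The log2 fold change from Day 30 to Day 113 was 0.49 ± 0.19 (SE), with an edgeR adjusted p of 0.057. This difference is at the edge of the test: the adjusted p was 0.044 when only the wells of these 2 days were fitted and 0.034 with limma-voom. Leaving out Day 30 replicate 4 gave 0.018, leaving out Day 60 replicate 1 or 2 gave 0.034 or 0.050, and leaving out Day 113 replicate 4 gave 0.048. It ran from 0.018 to 0.16 over all alternatives.

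ACTA1 (chromosome 1, 229431245 to 229434098, minus strand), the isoform of adult skeletal muscle, spread widely between the wells of a day, and no comparison of days passed the threshold. Its values were 51.4, 52.5, 41.8 and 73.6 CPM at Day 30, 114, 51.5 and 105 CPM at Day 60, and 108, 53.7, 66.4 and 33.0 CPM at Day 113. One Day 60 well lay at the Day 30 level, and the Day 113 wells spanned a 3.26-fold range. The log2 fold change was 0.72 ± 0.31 (SE, edgeR adjusted p 0.18) from Day 30 to Day 60 and -0.47 ± 0.31 (adjusted p 0.31) from Day 60 to Day 113. Single wells and the wells fitted moved these calls. With only the Day 30 and Day 60 wells in the fit, the first adjusted p was 0.038, and without Day 113 replicate 1 the second change was -0.82 with an adjusted p of 0.039.

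Within a well, ACTC1 had on average 77.3 times the counts of ACTA1 at Day 30, 52.6 times at Day 60 and 105 times at Day 113. These counts are not scaled by length, and the principal transcript of ACTC1 has 3694 bases against 1491 for ACTA1. Per kb of it, the Day 30 means were 1151 and 36.8 CPM. The log2 ratio of ACTA1 to ACTC1 averaged -6.26 ± 0.18, -5.68 ± 0.39 and -6.63 ± 0.56 (SD over 4, 3 and 4 wells), and its wells overlapped in all 3 pairs of days. The two-sided exact permutation p was 0.114 for each step and 0.286 from Day 30 to Day 113, with adjusted values of 0.171, 0.171 and 0.343 over 12 ratio tests. With 3 or 4 wells in a day, no ratio could pass this test after adjustment, so it cannot decide the question. When limma replaced the permutation test, the step from Day 60 to Day 113 passed (-0.95) and the other 2 comparisons did not. The coding sequences of the pair are 85.7% identical, with 162 of 1131 bases different, and the longest run that the transcripts share is 35 bases, shorter than a read of 150 bases.

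**Figure D1:**
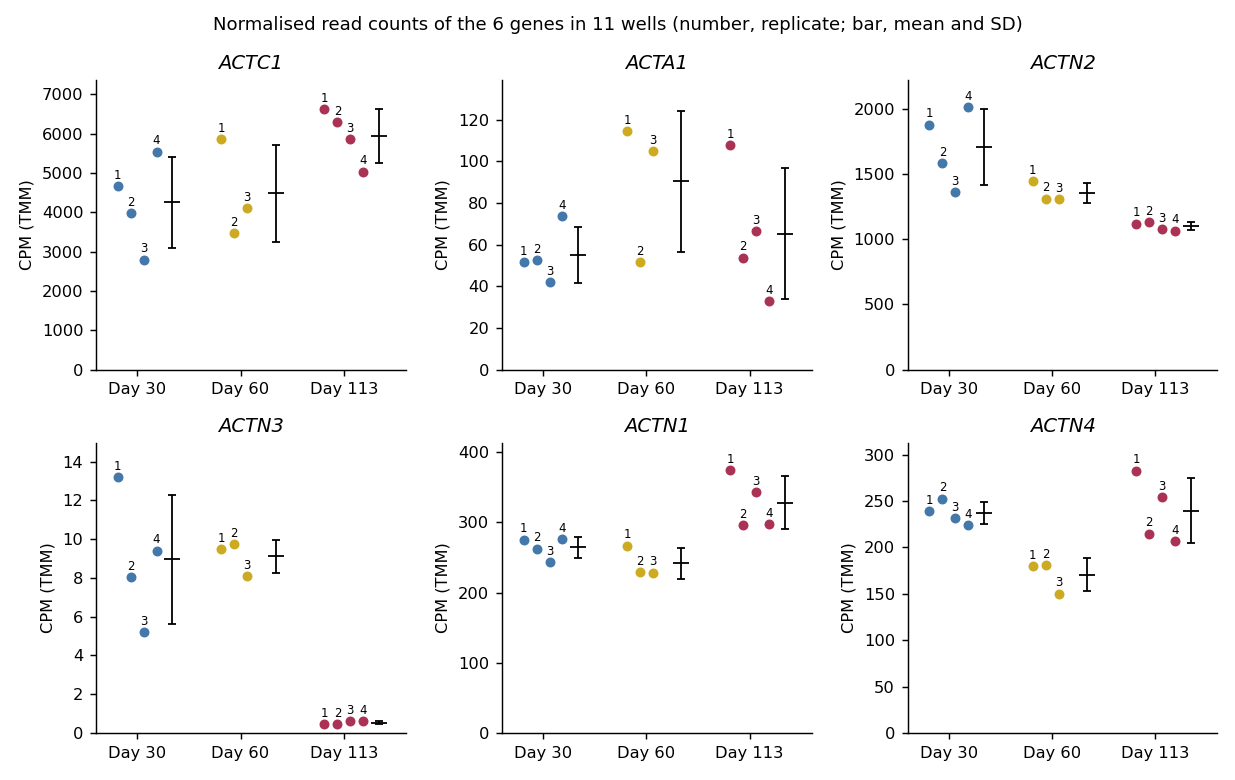
TMM-scaled counts per 1000000 (CPM, linear axes from 0) of the 6 genes by day; each point is a well with its replicate number, and the bar gives the mean and SD. ACTN2 is lowest in the 4 Day 113 wells, ACTN4 was lowest at Day 60, and ACTN3 lay between 0.450 and 0.628 CPM in all 4 Day 113 wells.

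ACTN2 (chromosome 1, 236686454 to 236764631, plus strand), the sarcomeric alpha-actinin of the heart, fell over the culture. It stood at 1880, 1588, 1360 and 2013 CPM in the Day 30 wells, at 1444, 1312 and 1308 CPM in the Day 60 wells and at 1120, 1134, 1080 and 1066 CPM in the Day 113 wells. Every Day 113 well lay below every earlier well, and the spread between wells was 17.1% (coefficient of variation, SD over mean) at Day 30 and 2.95% at Day 113. ACTN2 fell from Day 30 to Day 113 by 0.64 ± 0.11 (SE) on the log2 scale, which is 1.55-fold lower (edgeR adjusted p 4.0e-04), and this call held in all alternatives, with adjusted p-values up to 0.0024. The 2 steps were of similar size. They were -0.34 ± 0.12 (adjusted p 0.097) to Day 60 and -0.30 ± 0.12 (adjusted p 0.084) from Day 60, and neither passed the threshold. Without Day 30 replicate 3 both did, with adjusted p-values of 0.030 and 0.049. The difference between the 2 steps was 0.04 ± 0.21 (SE, edgeR adjusted p 0.95).

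ACTN3 (chromosome 11, 66546395 to 66563329, plus strand), the fast-fibre alpha-actinin, was present at a low level until Day 60. Its reads numbered 346, 241, 158 and 274 at Day 30, 297, 264 and 257 at Day 60, and 16, 12, 22 and 15 at Day 113. The Day 113 wells did not overlap with the others, which is the pattern the gene was chosen for. By day, the means were 8.97 ± 3.33, 9.10 ± 0.873 and 0.535 ± 0.0924 CPM (SD over 4, 3 and 4 wells). The fitted level at Day 113 was 16.9-fold lower than at Day 60, with leave-one-out log2 values of -4.17 to -4.01. Between Day 30 and Day 60 the log2 value was 0.02 ± 0.27 (SE).

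Few other genes of fast skeletal muscle were called, and they went in both directions. Of 14 listed genes, 11 were in the table. From Day 60 to Day 113, 1 of them passed the test, where 11.1% of all genes were called lower and 12.9% higher. This was TNNT3, the fast troponin T, which fell by 2.96 on the log2 scale (adjusted p 3.3e-04), its mean being 8.00 ± 2.05 CPM before (SD over 3 wells) and 1.01 ± 0.807 CPM after (SD over 4). Over the whole culture, Day 30 to Day 113, TNNT3 fell by 2.78 and PYGM, the muscle glycogen phosphorylase, by 0.49, whereas ENO3, the muscle enolase, rose by 0.62 (adjusted p 0.0023) and MYL1, a fast myosin light chain, by 3.14 at a level of at most 1.24 CPM in a day's mean. These 2 falls and 2 rises of 11 genes are near the shares of all genes, 17.2% lower and 17.3% higher. The list's median log2 change was -0.24 after Day 60, against 0.00 over all genes. The skeletal muscle regulators MYOD1 and MYOG, the only 2 of 6 listed progenitor genes in the table, summed to 0 to 0.0764 CPM at Day 30, 0.811 to 1.56 at Day 60 and 0.361 to 1.39 at Day 113. Their part in the ACTN3 values was not tested. The neighbouring gene ZDHHC24, 157 bases from ACTN3 on the opposite strand, stood at 22.3, 18.3 and 18.9 CPM on the 3 days and passed no test (adjusted p 0.18 to 0.85).

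ACTN1 and ACTN4, the alpha-actinins outside the Z-disc, rose after Day 60. ACTN1 (chromosome 14, 68874143 to 68979440, minus strand) had values of 275, 262, 243 and 276 CPM at Day 30, 267, 230 and 228 CPM at Day 60, and 375, 297, 343 and 298 CPM at Day 113. All 4 Day 113 wells were above all earlier wells. The rise from Day 60 was 0.44 ± 0.11 (SE, log2; 1.36-fold, edgeR adjusted p 0.0071) and held in all alternatives. The rise from Day 30 was 0.31 ± 0.10 (adjusted p 0.021), and it did not pass without Day 30 replicate 3 (adjusted p 0.069), Day 113 replicate 1 (0.064) or Day 113 replicate 3 (0.056). The step from Day 30 to Day 60 was -0.13 ± 0.11 (adjusted p 0.54).

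ACTN4 (chromosome 19, 38647649 to 38731583, plus strand) fell and then rose. It stood at 239, 252, 232 and 224 CPM at Day 30, at 180.1, 181 and 150.1 CPM at Day 60, and at 283, 215, 254 and 207 CPM at Day 113. The Day 60 wells were below all wells of both other days, and the means of Day 30 and Day 113 were 237 ± 12.2 and 240 ± 35.4 CPM (SD, n = 4 each). ACTN4 fell by 0.47 ± 0.12 (SE, log2; 1.39-fold lower, edgeR adjusted p 0.016) to Day 60 and rose by 0.49 ± 0.12 (1.41-fold, adjusted p 0.0065) after it, with a net value of 0.02 ± 0.11 (adjusted p 0.92). The 2 steps differed by 0.97 ± 0.21 (SE, edgeR adjusted p 0.010), and ACTN4 was the only one of the 5 tested genes for which this test passed. Without Day 60 replicate 3, the fall was 0.37 with an adjusted p of 0.11 and the difference of the steps 0.77 with an adjusted p of 0.086. Without Day 30 replicate 2, the adjusted p of the fall was 0.067. The fibroblast marker sum averaged 5591, 2967 and 9125 CPM on the 3 days and the endothelial sum 72.3, 45.9 and 426 CPM, both lowest at Day 60. The collagen genes carried the first sum, whereas DCN, POSTN and TCF21 had their lowest mean at Day 30 and PDGFRA its lowest at Day 113. The part of these markers in the ACTN1 and ACTN4 values was not tested.

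**Figure D2:**
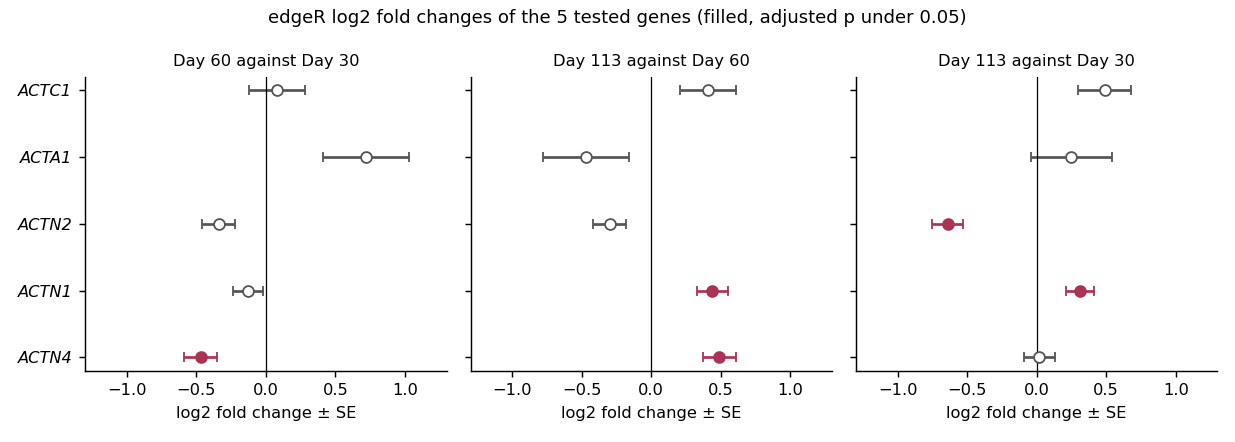
edgeR log2 fold changes with SE of the 5 tested genes in the 3 comparisons of days; filled points passed an adjusted p of 0.05. ACTN2 lies at -0.64 and ACTN1 at 0.31 from Day 30 to Day 113, while ACTN4 is at -0.47 in the first panel and at 0.49 in the second.

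The calls among the 5 tested genes stand beside those among all genes. From Day 30 to Day 60, 1 of 5 was called, a fall, where 10.3% of all 19990 genes were called (4.39% higher and 5.91% lower). That background was 2060 genes, but 1323 when Day 30 replicate 2 was left out, and 1259 or 1220 when replicate 1 or 3 of Day 60 was. From Day 60 to Day 113, 2 of 5 were called, both higher, against 24.0% of all genes (12.9% higher, 11.1% lower). From Day 30 to Day 113, 2 of 5 were called, 1 higher and 1 lower, against 34.5% (17.3% higher, 17.2% lower). The difference between the steps was called for 1 of 5 genes and for 9.34% of all, or 1868 genes, a count of 643 or 774 when replicate 1 or 3 of Day 60 was left out. The median log2 fold change of the 5 genes was -0.13, 0.41 and 0.25 in the 3 comparisons of days, and that of all genes was -0.01, 0.00 and -0.02.

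The mix of alpha-actinins within each well changed over the culture. The log2 count ratio of ACTN1 to ACTN2 averaged -2.68 ± 0.17 in the Day 30 wells, -2.49 ± 0.05 in the Day 60 wells and -1.75 ± 0.16 in the Day 113 wells (SD over 4, 3 and 4 wells). No Day 113 well overlapped with an earlier one, and the ratio was 1.90 times its Day 30 value by Day 113 (two-sided exact permutation p 0.0286, adjusted 0.114). The ratio of ACTN4 to ACTN2 was -2.84 ± 0.28, -2.99 ± 0.13 and -2.21 ± 0.20 (SD), again with all Day 113 wells above the others, and was 1.54 times its Day 30 value by Day 113 (exact permutation p 0.0286, adjusted 0.114). From Day 60 to Day 113 both ratios gave an exact permutation p of 0.0571 (adjusted 0.114). These are the smallest p-values that 4 wells against 4, and 3 against 4, allow, so no ratio could pass after adjustment over 12 tests. With limma in place of the permutation test, the ACTN1 to ACTN2 ratio from Day 30 to Day 113 had an adjusted p of 5.0e-05 and the ACTN4 to ACTN2 ratio one of 0.0049. The ratio of ACTN1 to ACTN4 was 0.16 ± 0.12, 0.50 ± 0.14 and 0.46 ± 0.05 (SD), with no overlap between Day 30 and either later day (exact permutation p 0.0571 and 0.0286, both adjusted 0.114). The ratio of ACTN3 to ACTN2, which the choice of ACTN3 fixes in part, was -7.64 ± 0.37, -7.22 ± 0.13 and -11.02 ± 0.29 (SD).

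**Figure D3:**
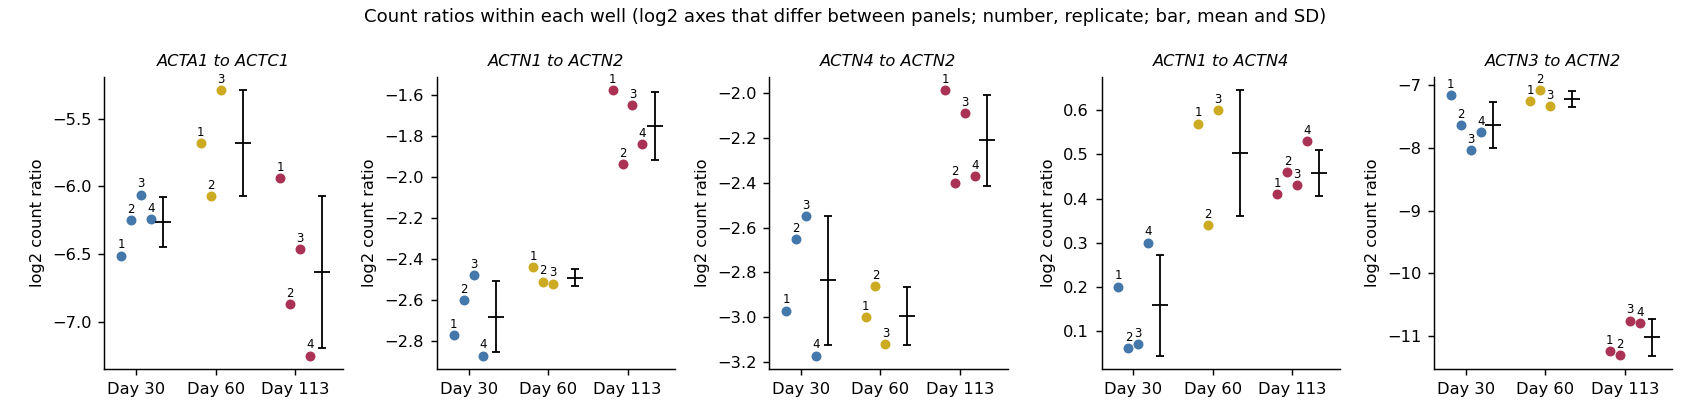
Log2 ratios of read counts between 2 genes of a family in each well, by day, on axes that differ between panels; numbers are replicates and bars the mean and SD. The ACTN1 to ACTN2 and ACTN4 to ACTN2 ratios of all Day 113 wells lie above those of all earlier wells, while the ACTA1 to ACTC1 ratio overlaps between days.

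Levels of different genes are compared per length, as CPM per kb of the principal transcript. At Day 30 the order was ACTC1 (1151 ± 314 CPM per kb), ACTN2 (352 ± 60.3), ACTN1 (69.9 ± 4.04), ACTN4 (47.7 ± 2.45), ACTA1 (36.8 ± 8.99) and ACTN3 (3.05 ± 1.13; SD, n = 4). At Day 60, ACTA1 (60.6 ± 22.8) lay between ACTN1 (63.9 ± 5.80) and ACTN4 (34.3 ± 3.54; SD, n = 3). Later, at Day 113, ACTN4 (48.3 ± 7.12) and ACTA1 (43.7 ± 21.1; SD, n = 4) again stood within each other's spread. ACTC1 and ACTN2 led and ACTN3 was last on every day, but the order of ACTN1, ACTN4 and ACTA1 depended on the length used: over all annotated exon bases (10.6 kb for ACTN1 in place of 3.78 kb), ACTN1 was at 24.9 CPM per kb at Day 30, below ACTN4 at 38.8 and ACTA1 at 36.7. Per length of the principal transcript, ACTN2 made up 74.2% ± 2.75 of the 4 alpha-actinins at Day 30, 73.3% ± 0.764 at Day 60 and 62.7% ± 2.88 at Day 113. The share of ACTN1 was 14.9%, 16.8% and 24.0%, that of ACTN4 10.3%, 9.04% and 13.3%, and that of ACTN3 0.634%, 0.816% and 0.0507%. Over all exon bases the ACTN1 share was 6.69%, 7.61% and 11.45%, below that of ACTN4 (10.5%, 9.37% and 14.55%), and ACTN2 made up 82.1%, 82.15% and 73.9%.

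The other 4 actin genes all rose from Day 60 to Day 113 and from Day 30 to Day 113. Among all genes, 12.9% and 17.3% were called higher in these 2 comparisons. The log2 rise from Day 30 to Day 113 was 1.76 for ACTA2, the vascular smooth muscle actin (adjusted p 3.4e-07), 0.92 for ACTG2, the enteric one (0.0026), 0.57 for ACTB (0.0063) and 0.76 for ACTG1 (4.2e-04), the 2 cytoplasmic actins. ACTB had a course like that of ACTN4, with a fall of 0.55 to Day 60 (adjusted p 0.036) and a rise of 1.12 after it (adjusted p 1.7e-04), and its 2 steps differed by 1.67 (adjusted p 0.0026). Per length, ACTC1 made 60.1% ± 9.83, 60.8% ± 6.46 and 56.3% ± 1.06 of the 6 actins on the 3 days (SD over 4, 3 and 4 wells), and ACTA1 1.93%, 3.03% and 1.48%. ACTA2 made up 2.93%, 3.90% and 6.51%. The smooth muscle list had 5 of its 6 measured genes higher at Day 113 than at Day 30, against 17.3% of all genes. ACTA2 and ACTG2 are themselves among these 5, while CNN1 did not pass (0.10, adjusted p 0.66) and MYH11 was not in the table. The part of smooth muscle cells in the actin rises was not tested.

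**Figure D4:**
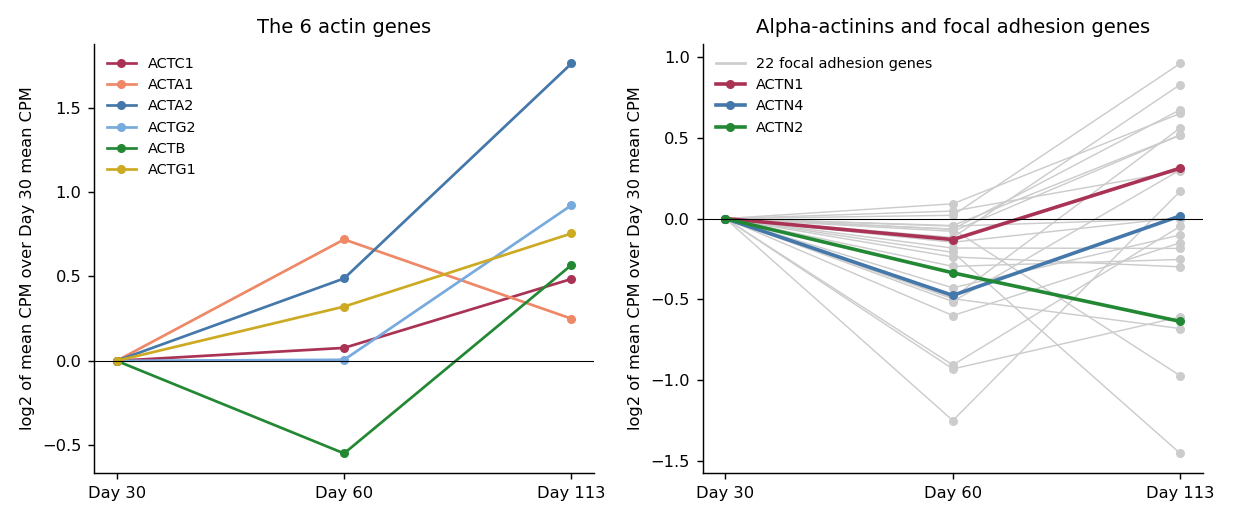
Log2 of the mean CPM of each day over the mean at Day 30, for the 6 actins (left) and for ACTN1, ACTN4 and ACTN2 with 22 focal adhesion genes in grey (right). ACTA2 ends highest among the actins at 1.76, ACTB dips at Day 60, and ACTN2 ends at -0.64.

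The genes around the members are given by lists, which were also written with earlier results of these data known. Of 22 focal adhesion genes, the partners of ACTN1 and ACTN4 at the membrane, 0 were higher and 7 lower at Day 60 than at Day 30, and 10 were higher and 2 lower at Day 113 than at Day 60. Among all genes, 4.39% were higher and 5.91% lower in the first step, and 12.9% and 11.1% in the second. The median log2 change of the list was -0.20 and then 0.39 (all genes -0.01 and 0.00), and the difference of the 2 steps passed for 9 of them, 8 in the direction of ACTN4 (9.34% of all genes in either direction). LIMA1, which bundles actin filaments, fell by 1.25 and then rose by 1.42 (adjusted p 0.0034 and 6.2e-04). PARVA, a parvin that ties integrin-linked kinase to actin, fell by 0.49 and rose by 1.05, and MYH9, the nonmuscle myosin, fell by 0.51 and rose by 0.81. Of the same 22 genes, 7 were higher and 4 lower at Day 113 than at Day 30, where 17.3% of all genes were higher and 17.2% lower. The share that fell was near that of all genes, and the list's median was 0.00 (all genes -0.02). PDLIM7 (0.96), filamin A (FLNA, 0.83) and VASP (0.67) had the 3 largest rises, and paxillin (PXN, -0.97) and PDLIM1 (-0.68) fell.

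Of 20 Z-disc partners of ACTN2, 7 rose and 4 fell from Day 30 to Day 113, with a median of 0.15 (all genes -0.02). The share that fell was near the 17.2% of all genes, and 17.3% of all genes rose. XIRP2, an actin-binding Xin repeat protein, rose by 3.15 (adjusted p 1.1e-07), from 3.97 to 35.4 CPM. NRAP, which acts in myofibril assembly, rose by 1.77 and myozenin 1 (MYOZ1) by 0.93. Filamin C (FLNC, -0.57), telethonin (TCAP, -0.52) and XIRP1 (-0.47) were among those that fell. Titin (TTN), which alpha-actinin anchors at the Z-disc, had a value of 0.02 (adjusted p 0.96).

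Of 10 genes listed with the thin filament, 6 rose and 0 fell from Day 30 to Day 113 (median 0.53), where 17.3% of all genes rose and 17.2% fell. The list includes MYBPC3, myosin-binding protein C of the thick filament, which did not pass (-0.18, adjusted p 0.22). Cardiac troponin I (TNNI3) rose by 1.93 (adjusted p 5.3e-08), leiomodin 3 (LMOD3), an actin nucleator, by 1.50 and troponin C (TNNC1) by 1.04. Of 18 actin turnover and assembly genes, 10 rose and 0 fell (median 0.38, against -0.02 for all genes), among them the capping protein subunit CAPZA2 (0.90), thymosin beta 4 (TMSB4X, 0.75) and destrin (DSTN, 0.68). Of 12 regulators of muscle actin genes, 1 rose, SRF, and 4 fell, beside the same 17.3% and 17.2% of all genes. The 4 were GATA4 (-0.69), MRTFB (-0.49), MRTFA (-0.34) and myocardin (MYOCD, -0.32, adjusted p 0.039). MRTFA, MRTFB and myocardin are coactivators of serum response factor.

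Wells of a day ranked alike for some of these genes but not for all. At Day 30, ACTC1, ACTA1, ACTN1 and ACTN2 were all highest in replicate 4 and lowest in replicate 3. ACTN4 was highest in replicate 2 and lowest in replicate 4, and ACTN3 was highest in replicate 1 and lowest in replicate 3. At Day 60 ACTC1, ACTA1, ACTN1 and ACTN2 were highest in replicate 1, and ACTN3 and ACTN4 in replicate 2. The lowest Day 60 well was replicate 2 for ACTC1 and ACTA1 and replicate 3 for the 4 alpha-actinins. At Day 113 ACTC1, ACTA1, ACTN1 and ACTN4 were highest in replicate 1, whereas ACTN2 was highest in replicate 2 and ACTN3 in replicate 3. The coefficient of variation of ACTC1 was 27.3%, 27.6% and 11.5% on the 3 days, and that of ACTA1 24.4%, 37.6% and 48.2%. Over 11946 genes with a mean of at least 5 CPM, the median was 9.21%, 10.9% and 14.1% and the 90th percentile 21.0%, 24.6% and 29.0%. ACTA1 was thus above the 90th percentile on each day, and ACTC1 at Day 30 and Day 60.

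The genes most like each member are named by Pearson's r of log2 CPM over the 11 libraries. These share 1 line and fall on 3 days, so that r follows the day means and is given as a description. ACTN4 was most like CCN1 (r 0.982), FLT1 (0.980) and TNFRSF10D (0.969), all of which had their lowest mean at Day 60. ACTN1 was most like TLN1 (0.958), MICAL2 (0.951) and ANTXR1 (0.950). ACTN2 was most like TEAD3 (0.967), SRL (0.962) and ZNF317 (0.957). ACTN3 was most like PLA2G12A (0.986), RAB3A (0.983) and SEC14L5 (0.983), with mean levels of 44.0, 7.46 and 3.34 CPM at Day 113 against 85.4, 23.2 and 13.1 at Day 60. ACTC1 was most like PRPF3 (0.942), NR2C1 (0.917) and THUMPD2 (0.908), and the closest gene to ACTA1 was MTUS2 (0.864), followed by NOD1 (0.836) and AFAP1L1 (0.832). Over all pairs of members, r ran from -0.773 (ACTN1 and ACTN3) to 0.820 (ACTN2 and ACTN3). The choice of ACTN3 by its fall after Day 60 fixes its r in part, both here and with the genes most like it. Pairs without ACTN3 had an r of 0.772 for ACTC1 and ACTN1, 0.716 for ACTN1 and ACTN4, and 0.452 for ACTC1 and ACTA1, among others.

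Overlapping and similar genes limit some counts. ACTN4 shares 868 exon bases with CAPN12 on the opposite strand, and CAPN12 had 0 to 93 counts in a library. ACTC1 shares 367 exon bases with AC087457.1 and ACTN3 shares 141 with AP002748.1, both on the opposite strand, and ACTN1 shares 300 with the pseudogene HMGN1P3 on the same strand. Counts of these 3 genes were not analysed here. Whether counting used strand is not given in the sources used here. ACTN1 and ACTN4 coding sequences are 82.5% identical with a longest shared run of 73 bases, and ACTN2 and ACTN3 are 75.7% identical with a longest shared run of 27 bases, both below the read length.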

How the data were processed

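Poly(A) RNA libraries of 11 wells were sequenced as paired-end reads, per the labels' protocols. The authors deposited whole-number read counts for 19990 genes, made with STAR 2.5.3a, featureCounts 2.0.3 and hg38, per the submitters' processing notes. The counting settings and annotation are not given in the sources used here. The deposited TPM values were used only in a check of the gene length implied by count and TPM. Among the members, this length differed between libraries by 12.2-fold (ACTN2) to 102-fold (ACTN4). The median over 16808 genes was 73.2-fold, so the counts and the TPM values disagreed for the typical gene and not only for the members. Whether rows or columns of the counts and the TPM values are matched was not tested. Results rest on counts.

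The counts went into edgeR 4.0.16 (R 4.3.3) and its quasi-likelihood test (glmQLFit and glmQLFTest; TMM scaling, all 11 libraries, day as the factor, filterByExpr with a minimum count of 10, which removed no gene). Adjusted p-values are Benjamini-Hochberg values over 19990 genes, threshold 0.05, and come from this test unless another is named. For log2 count ratios, exact permutation tests (two-sided, SciPy 1.17.1) were used, adjusted over 12 tests. The alternatives used limma 3.58.1, DESeq2 1.42.0, other scalings and filters, a replicate block and each library left out. Wells of a day differed by more than counting noise (chi-square per degree of freedom 11.4 to 84.0) and were counted separately. The replicates are wells of the same line and passage, so p-values measure the spread between these wells.

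The members and gene lists were chosen with earlier results of these data known. Named genes were the members, all genes of lists with at most 8 genes, up to 3 highest and 3 lowest called changes from Day 30 to Day 113 of longer lists with a mean CPM of at least 5, overlapping or nearest genes, and the 3 genes most like each member; other list genes were named after their values were seen, and some that the rule selects are given only within a marker sum or are not reported here. Annotation is GENCODE 29 (GRCh38), and promoters are from RefSeq (GRCh38.p14).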

Additional observations from a re-analysis of the deposited data

Results flagged for a closer look

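Within groups of 4 wells, 2 of 42 sets of values tested had a single well set apart from the others, by a gap above Dixon's 95% critical share of the group's range. Chance alone gives about 1 such set in 20. At Day 30, replicate 4 had the highest share of ACTA1 among the 6 actins per length, 2.31%, where the other 3 wells lay between 1.80% and 1.81%. The same well had the highest ACTA1 and ACTC1 levels of its day. At Day 113, replicate 1 had the lowest share of ACTG1 among the 6 actins, 16.7%, where the other 3 wells lay between 19.1% and 19.4%. The cause was not tested for either.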

How the results depend on the processing

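The calls for ACTN2 from Day 30 to Day 113 and for ACTN1 and ACTN4 from Day 60 to Day 113 passed in all 19 alternatives. For other results the cause of a changed call was not tested, except that leaving out a library means fewer wells. ACTC1 from Day 30 to Day 113 passed with 0.522 under the replicate block (adjusted p 0.020), 0.498 with only the 2 days compared and 0.521 with limma-voom. ACTA1 to Day 60 passed with only the 2 days compared (0.738). ACTN2 to Day 60 passed with DESeq2 (-0.321), and ACTN2 from Day 60 passed with upper-quartile scaling (-0.366), the replicate block (-0.331) and DESeq2 (-0.316). The difference of steps for ACTN1 passed with the replicate block (0.597) and DESeq2 (0.542). With upper-quartile scaling the ACTN4 value from Day 30 to Day 113 turned to -0.011 and the ACTN2 difference of steps to -0.069, and the latter was -0.041 under the replicate block; none of these passed a test.

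For the ratios, limma called 7 of 12. From Day 60 to Day 113 it gave -0.950 for ACTA1 to ACTC1 (-0.851 with the replicate block), 0.738 for ACTN1 to ACTN2 (0.784) and 0.784 for ACTN4 to ACTN2 (0.866). From Day 30 to Day 113 it gave 0.927, 0.627 and 0.301 for ACTN1 to ACTN2, ACTN4 to ACTN2 and ACTN1 to ACTN4, the same with the block, and for the last ratio 0.347 (0.382) to Day 60.

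Leaving out each library in turn, genes called ran from 1220 (without Day 60 replicate 3) to 2618 for Day 60 against Day 30, 3317 to 4735 for Day 113 against Day 60, 5657 to 6977 for Day 113 against Day 30 and 643 (without Day 60 replicate 1) to 2221 for the difference of steps. Log2 fold changes to Day 60 ran from -0.142 to 0.231 for ACTC1, -0.431 to -0.248 for ACTN2 and -0.521 to -0.367 for ACTN4. From Day 60 they ran from -0.820 to -0.250 for ACTA1 and -0.334 to -0.260 for ACTN2. From Day 30 to Day 113 they ran from 0.329 to 0.639 for ACTC1, -0.100 to 0.471 for ACTA1, 0.243 to 0.358 for ACTN1 and -0.072 to 0.082 for ACTN4. The difference of steps ran from -1.749 to -0.810 for ACTA1, 0.460 to 0.695 for ACTN1, -0.052 to 0.13 for ACTN2 and 0.766 to 1.058 for ACTN4; it passed for ACTA1 without Day 113 replicate 1 (-1.541, adjusted p 0.038) and for ACTN1 without Day 113 replicate 2 (0.618, adjusted p 0.032). The ACTN1 to ACTN4 ratio from Day 60 ran from -0.128 to 0.004.

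Same-numbered wells of different days are not stated to be related. Their deviations from the day means correlated by 0.023 to 0.076 in 10 pairs. Of 20 comparisons of a well with another day, 17 were closest for the same number. Each comparison held 3 or 4 wells, and an even choice among them would give fewer. The replicate block called 2474, 4954, 7143 and 2366 genes in the 4 contrasts, where the fit without it called 2060, 4790, 6889 and 1868. The main fit had no such block, and whether same-numbered wells are related is not known. ACTN3 at Day 113 rests on 12 to 22 reads per library, and counts carry no molecular identifiers.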
